A study of Mus musculus with 6 samples.

Results

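Peroxiredoxins and their partner enzymes remove the superoxide and peroxide that cells make during respiration. The genes described here are 6 peroxiredoxin genes (Prdx1 to Prdx6), the thioredoxin gene Txn1, the superoxide dismutase gene Sod1, the catalase gene Cat and the glutathione peroxidase gene Gpx1. They were taken by name from the deposited table, and all 10 of 10 were found among its 18491 genes. All 10 passed the filter on low counts, which left 15474 genes for testing. RNA was sequenced from 6 libraries of mouse bone marrow cells sorted by flow cytometry as haematopoietic stem and progenitor cells, 3 labelled wild type and 3 labelled Robo1 knockout. Robo1 is a receptor for the Slit guidance proteins. The knockout was made with Mx1-cre, a recombinase that injected poly(I:C), which mimics viral RNA, switches on in interferon-responsive cells, so that cells other than blood cells can also be recombined. The design text gives 3 doses of poly(I:C) for the knockout, and the protocol of all 6 libraries places the sort 8 months after the injection. The labels state neither the age of the mice nor whether wild-type mice carried Mx1-cre. The sample titles, genotype and treatment fields call the same libraries shRNA control and ROBO1 knockdown, and the treatment field of knockout replicates 2 and 3 names ROBO2 and ROBO3. The groups here follow the sample descriptions. Robo1 itself was not analysed here, so the genotype was not checked against its transcript.

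Superoxide dismutases turn superoxide into hydrogen peroxide. Catalase, glutathione peroxidases and peroxiredoxins then reduce the peroxide to water, glutathione peroxidases with electrons from glutathione and most peroxiredoxins with electrons from thioredoxin. In blood formation, stem cells are known to be sensitive to peroxide, and red cells hold large amounts of catalase, glutathione peroxidase and peroxiredoxin 2.

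Total counts ran from 42235077 to 58106099 per library. The composition of the libraries differed between the groups: the share of counts in the 100 most abundant genes ran from 42.3 to 43.3% for wild type and from 59.7 to 60.8% for knockout. Values are therefore given as CPM, read counts scaled to library size, under 2 scalings, the trimmed mean of M values (TMM) and total counts. TMM resists a few very abundant genes but takes most genes to be unchanged, a premise that was not tested here. Moving from TMM to total counts lowers the log2 fold change of a typical gene by 1.13, and the median over all tested genes was -0.09 with TMM and -1.22 with total counts. No label ties a library to its own mouse, so the p-values measure only how these libraries vary, possibly for technical reasons. In RNA from many cells, fewer cells of a type and less RNA per cell cannot be told apart.

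With TMM scaling, 8 of the 10 genes rose in knockout, 0 fell, and Prdx4 and Cat did not pass (edgeR's quasi-likelihood test, adjusted over all tested genes). Over all tested genes 17.2% were called higher and 14.4% lower. All members but Prdx3, Prdx4 and Cat average over 100 CPM, and among the 1145 genes with a mean of at least 100 CPM 73.5% were called higher and 5.59% lower. With total counts 2 of the 10 were called higher, Gpx1 and Txn1, and 5 were called lower, Prdx2, Prdx3, Prdx4, Prdx5 and Cat. The shares over all tested genes were then 4.24% higher and 70.7% lower, 74.9% in either direction, and among the 1145 abundant genes 23.4% were called higher and 65.3% lower. Gpx1 and Txn1 were the members called higher with both scalings, as were 4.24% of all tested genes, and 0 members were called lower with both, against 14.4% of all tested genes. The groups did not overlap for the 8 genes called with TMM, all higher, as for 22.2% of all tested genes. With total counts 3 genes were higher in every knockout library (Gpx1, Txn1 and Prdx6), against 4.85% of all tested genes, and 5 were lower in every one, against 76.1%. In limma on log2(FPKM + 1), 2 of the 10 were called higher and 5 lower, where 4.5% of all tested genes were called higher and 69.2% lower. The median log2 fold change of the 10 genes was 0.99 with TMM and -0.14 with total counts. The median of the 1145 abundant genes was 0.64 with TMM and -0.50 with total counts.

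**Figure D1:**
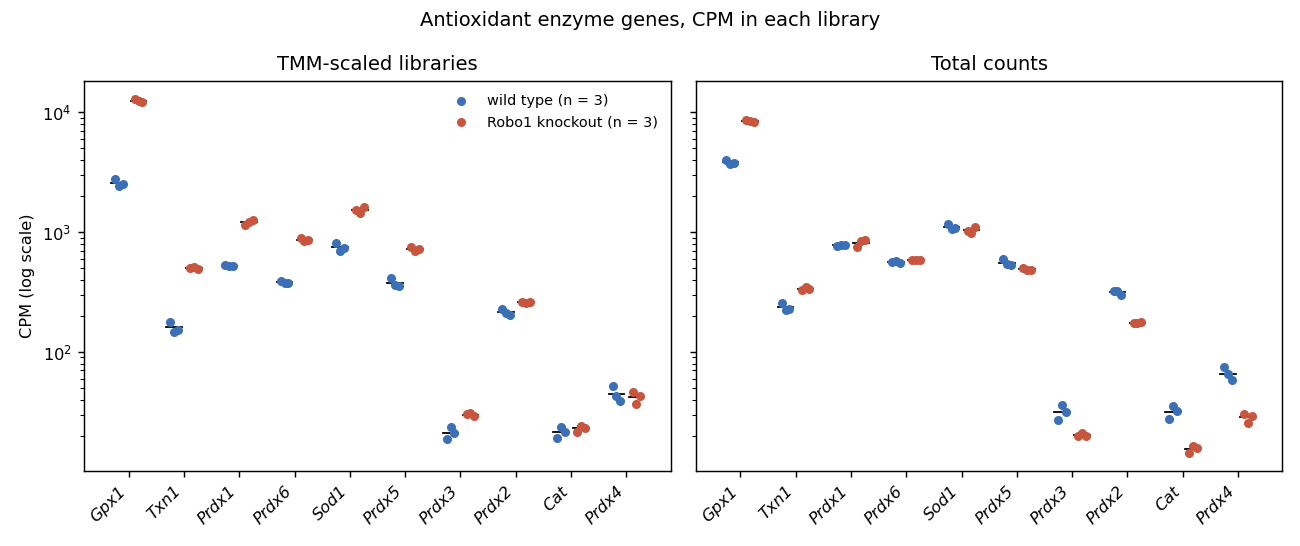
CPM of the 10 antioxidant genes in each library on a log axis, with TMM-scaled libraries on the left and total counts on the right; points are libraries (3 wild type, 3 knockout) and lines are group means. Gpx1 stands apart in both panels, and Prdx1, Prdx6 and Sod1 lie close together between the groups with total counts.

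Gpx1 (ENSMUSG00000063856, chr9:108338903-108340343 in GRCm38, plus strand) encodes the main cytosolic glutathione peroxidase, a selenoprotein. Its wild-type libraries held 2779.7, 2437 and 2521 CPM with TMM scaling, and its knockout libraries held 12993, 12350.0 and 12244 CPM. Every knockout library lay far above every wild-type library. The gene rose 4.86-fold (log2 2.28, SE 0.07, edgeR adjusted p = 4.07e-08), and 2.22-fold with total counts (log2 1.15, SE 0.05, edgeR adjusted p = 5.87e-07). Its share of all counts was 0.382 ± 0.0156% in the wild-type libraries and 0.845 ± 0.0125% in knockout (mean ± SD, n = 3 each). By the deposited length-scaled values (FPKM), it ranked between 29 and 32 of all genes in the wild-type libraries and between 14 and 15 in the knockout libraries, an order within each library that no scaling of libraries can alter. Without Gpx1, the other 9 genes together made up 0.368 ± 0.00977% of a wild-type library and 0.35 ± 0.00922% of a knockout library (mean ± SD, n = 3 each).

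Catalase, the product of Cat, breaks down hydrogen peroxide in peroxisomes. Cat (chr2:103453849-103485160, minus strand) was the least abundant of the 10 genes per length. With TMM its libraries stood at 19.2, 23.5 and 21.5 CPM in the wild-type libraries and 21.6, 23.9 and 23.4 CPM in knockout. The groups overlapped (log2 0.10, SE 0.10, edgeR adjusted p = 0.497). With total counts they did not overlap, at 27.6, 35.7 and 32.1 CPM in the wild-type libraries and 14.3, 16.4 and 15.9 CPM in knockout, a log2 change of -1.03 (SE 0.12, edgeR adjusted p = 3.22e-05). The median gene stood at -1.22 on that scale.

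Sod1 (chr16:90220754-90226329, plus strand) encodes the cytosolic copper and zinc superoxide dismutase. With TMM its libraries held 809.7, 699.5 and 731.2 CPM in the wild-type libraries and 1542, 1442 and 1619 CPM in knockout. The knockout libraries were all higher, with a 2.05-fold rise (log2 1.04, SE 0.07, edgeR adjusted p = 5.01e-06). With total counts the groups overlapped, at 1104.5 ± 52.5 and 1035.6 ± 58.6 CPM (mean ± SD, n = 3 each), and the log2 fold change was -0.09 (SE 0.06, edgeR adjusted p = 0.192).

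Txn1 (chr4:57943373-57956411, minus strand) encodes the cytosolic thioredoxin that returns oxidised peroxiredoxins to their active form. Its libraries stood at 179.3, 147.9 and 153.2 CPM in the wild-type libraries and 502.8, 508.1 and 492.5 CPM in knockout with TMM. With total counts they stood at 257.4, 224.4 and 228.3 CPM and at 331.9, 348.1 and 334.9 CPM. The groups did not overlap under either scaling. Txn1 rose 3.13-fold with TMM (log2 1.65, SE 0.08, edgeR adjusted p = 4.68e-07) and 1.43-fold with total counts (log2 0.52, SE 0.07, edgeR adjusted p = 8.39e-05). The processed copy Txn-ps1 held a mean of 11.2 counts per library, against 11475 to 18935 counts for Txn1.

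Prdx1 and Prdx2 encode the typical peroxiredoxins of the cytosol, which depend on thioredoxin. They lie at chr4:116685544-116700822 and chr8:84969587-84974834, both on the plus strand. Prdx1 stood at 530.2, 518.0 and 524.7 CPM in the wild-type libraries and 1137, 1223 and 1259 CPM in knockout with TMM, a 2.30-fold rise (log2 1.20, SE 0.06, edgeR adjusted p = 4.71e-07). With total counts the groups overlapped, and the log2 fold change was 0.07 (SE 0.06, edgeR adjusted p = 0.322). Prdx2, the peroxiredoxin for which red cells are known, moved less. It stood at 226.8, 212.4 and 202.3 CPM in the wild-type libraries and 263.6, 255.7 and 260.2 CPM in knockout. The groups did not overlap, and the log2 fold change was 0.28 (SE 0.06, edgeR adjusted p = 0.00858). With total counts Prdx2 was called in the other direction, at 316.4 ± 13.0 CPM in the wild-type libraries and 175.4 ± 1.48 CPM in the knockout (mean ± SD, n = 3 each; log2 -0.85, SE 0.06, edgeR adjusted p = 1.61e-06). Prdx2 shares 173 bp of exon with Junb and 177 bp with Rnaseh2a, both on the opposite strand. Junb, a transcription factor gene, rose with TMM (log2 1.88, SE 0.10), and Rnaseh2a did not pass (log2 0.02, SE 0.07, edgeR adjusted p = 0.836). With total counts Junb stood at 0.75 and Rnaseh2a at -1.11. No source used here says if counting used strand, so reads of the shared stretches cannot be told apart.

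Prdx3 encodes the peroxiredoxin of mitochondria and Prdx4 that of the endoplasmic reticulum, at chr19:60864051-60874556 and chrX:155323918-155340754 on the minus strand. Prdx3 stood at 18.7, 23.7 and 21.0 CPM in the wild-type libraries and 30.1, 30.8 and 29.2 CPM in knockout with TMM, a 1.42-fold rise (log2 0.51, SE 0.10, edgeR adjusted p = 0.00459). With total counts it was called lower, with a log2 value of -0.63 (SE 0.12, edgeR adjusted p = 0.000808). Prdx4 was the member with the lowest fold change. Its libraries stood at 51.6, 43.1 and 39.2 CPM in the wild-type libraries and 46.1, 37.1 and 43.1 CPM in knockout, and the groups overlapped (log2 -0.09, SE 0.12, edgeR adjusted p = 0.647). With total counts it stood at 66.0 ± 7.89 and 28.4 ± 2.62 CPM (mean ± SD, n = 3 each; log2 -1.22, SE 0.11, edgeR adjusted p = 7.78e-06), the same as the median gene to 2 decimals.

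Prdx5 encodes a peroxiredoxin found in mitochondria, peroxisomes and cytosol, and Prdx6 encodes the form with a single active cysteine, which draws on glutathione. They lie at chr19:6906697-6910106 and chr1:161240112-161251219 on the minus strand. Prdx5 stood at 415.4, 359.8 and 355.1 CPM in the wild-type libraries and 757.2, 699.5 and 716.9 CPM in knockout with TMM. All knockout libraries were higher (1.92-fold, log2 0.94, SE 0.07, edgeR adjusted p = 1.15e-05). With total counts Prdx5 was called lower by a small margin (log2 -0.19, SE 0.06, edgeR adjusted p = 0.0182). It shares 409 bp of exon with Trmt112 on the opposite strand, a gene with a log2 fold change of 0.42 (SE 0.12) with TMM and -0.71 (SE 0.10) with total counts. Prdx6 stood at 391.6, 378.5 and 373.3 CPM in the wild-type libraries and 893.0, 848.7 and 857.6 CPM in knockout with TMM (2.27-fold, log2 1.18, SE 0.06, edgeR adjusted p = 3.50e-07). By total counts, Prdx6 read 562.4, 574.1 and 556.3 CPM for wild type against 589.4, 581.4 and 583.2 CPM for knockout. The groups did not overlap, but the difference did not pass (log2 0.05, SE 0.05, edgeR adjusted p = 0.361).

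**Figure D2:**
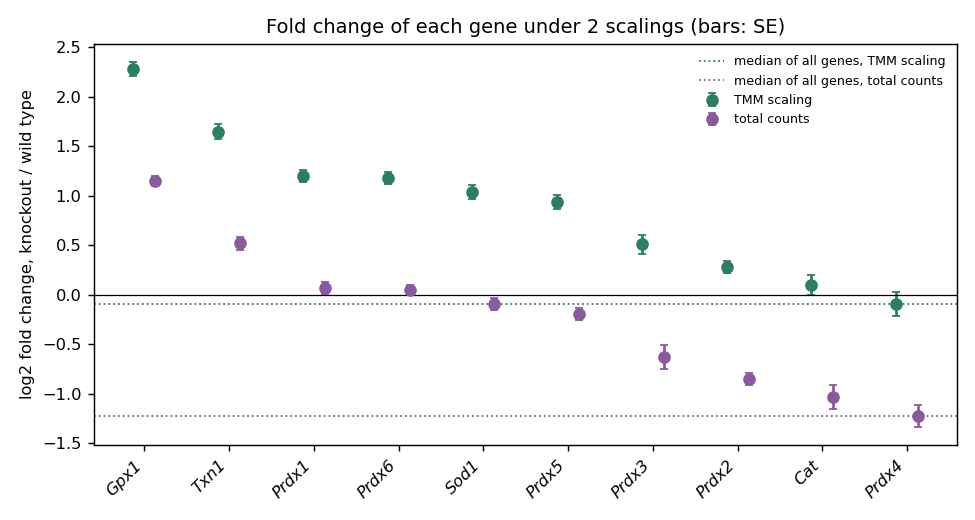
Log2 fold change of each gene, knockout over wild type, with TMM scaling and with total counts; bars are standard errors and dotted lines the median of all tested genes under each scaling. The order from Gpx1 to Prdx4 is the same under both, because a scaling shifts all genes alike, and Prdx4 lies close to the median gene in each.

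A scaling of libraries shifts all log2 fold changes by about the same amount, so the distance between members cannot depend on it. From Prdx4 to Gpx1 the log2 fold changes spanned 2.37 with TMM and 2.37 with total counts. To compare the genes without any scaling of libraries, each was divided by the geometric mean of the other 9 in the same library, using FPKM. On this log2 ratio the groups did not overlap for 9 of the 10 genes, 5 higher and 4 lower in knockout. Over all tested genes, each divided by the geometric mean of the members, the groups did not overlap with knockout higher for 6.54% and lower for 67.9%. Dividing the members by one another ties the 2 directions together, and against the median of the others 2 were higher and 8 lower. With 3 libraries against 3, the exact two-sided permutation test cannot give a p below 0.1, and it gave 0.1 for each of the 9, so none of the 10 tests could pass 0.05 or an adjustment. The ratio of Gpx1 went from 4.46 ± 0.031 to 6.015 ± 0.048, a difference of 1.56 (SE 0.03) on the log2 scale. That of Txn1 went from -0.016 ± 0.106 to 0.815 ± 0.040, a difference of 0.83 (SE 0.07). On the other side, the ratio changed by -1.09 (SE 0.13) for Prdx4, by -0.89 (SE 0.14) for Cat, by -0.68 (SE 0.02) for Prdx2 and by -0.43 (SE 0.14) for Prdx3. The groups overlapped for Prdx5, at a difference of -0.11 (SE 0.12, exact permutation p = 0.6).

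The remaining 3 genes depended on what they were divided by. Prdx1, Prdx6 and Sod1 were higher by 0.33, 0.33 and 0.16 against the geometric mean of the others, and lower by -0.42, -0.42 and -0.57 against their median. Against the median Prdx5 was lower too, by -0.81, with no overlap. Gpx1 and Txn1 were higher, and Prdx2, Prdx3, Prdx4 and Cat lower, against both.

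**Figure D3:**
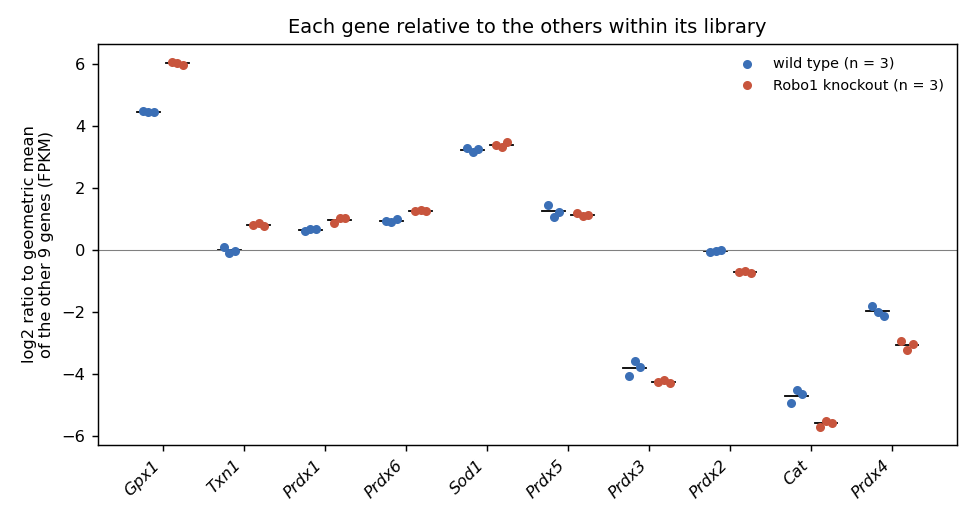
Log2 ratio of each gene to the geometric mean of the other 9 genes in the same library, from deposited FPKM; points are libraries (3 per group) and lines are group means. Gpx1 and Txn1 move up from wild type to knockout, and Prdx2, Prdx4 and Cat move down.

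Per length, Gpx1 was the most abundant in both groups, at 3054.8 ± 56.7 FPKM in the wild-type libraries and 6879 ± 132 FPKM in knockout (mean ± SD, n = 3 each). It made up 51.2 ± 0.647% of the summed FPKM of the 10 genes in wild type and 71.5 ± 1.02% in knockout. Sod1 came next, at 1424 ± 49.2 and 1340.0 ± 80.2 FPKM. In wild type Prdx5 (413.3 ± 47.9 FPKM) stood above Prdx6 (341.4 ± 9.56 FPKM), and in knockout Prdx6 (356.7 ± 2.48 FPKM) stood above Prdx5 (328.7 ± 9.90 FPKM), in each case with no overlap between their libraries. Prdx1 followed, at 283.7 ± 8.59 and 297.5 ± 19.8 FPKM. Txn1 (187.6 ± 11.7 FPKM) and Prdx2 (185.2 ± 3.45 FPKM) overlapped in wild type, but in knockout they stood apart at 268.4 ± 5.15 and 103.6 ± 0.966 FPKM. Prdx4 (55.5 ± 5.90 and 23.9 ± 2.35 FPKM), Prdx3 (17.7 ± 2.77 and 11.4 ± 0.330 FPKM) and Cat (10.1 ± 1.41 and 4.95 ± 0.324 FPKM) closed the order in both groups. The middle of this order depends on the length used: with TMM-scaled counts per kilobase of all annotated exons, Txn1 came right after Gpx1 in knockout, Sod1 was at rank 4, and 3 of the 10 genes held their rank. By that measure Prdx5 and Prdx6 did not change places. Prdx5 stood above Prdx6 in wild type (176.1 and 79.3) and in knockout (338.7 and 180.4). The deposited FPKM follow library totals, not TMM, so their group differences resemble those with total counts.

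The selenium-dependent members of the glutathione peroxidase family are read through a TGA codon that would otherwise end the protein. The coding sequence around that codon is shown for Gpx1 and for 2 relatives measured here, Gpx4 and Gpx3, because the reading of this codon links these transcripts to the selenoprotein synthesis genes described after them. Each line gives 51 bases, 5′ to 3′, from the GENCODE vM21 transcripts of GRCm38, with the TGA codon in capitals.
Gpx1: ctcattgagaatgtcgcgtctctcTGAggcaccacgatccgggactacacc
Gpx4: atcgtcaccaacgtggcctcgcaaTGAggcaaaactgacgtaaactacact
Gpx3: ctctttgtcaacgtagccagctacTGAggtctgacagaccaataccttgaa
The codons lie at chr9:108339451-108339453 for Gpx1, chr10:80054737-80054739 for Gpx4 and chr11:54907256-54907258 for Gpx3, all on the plus strand. Gpx1 and Gpx4 have the same base at 29 of the 51 positions, and Gpx1 and Gpx3 at 24. Gpx7 and Gpx8 carry no such codon in the annotation.

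Gpx4, which reduces lipid peroxides in membranes, was called higher with both scalings, from 222.7 ± 19.7 to 550.4 ± 33.6 CPM with TMM (mean ± SD, n = 3 each; log2 1.31, SE 0.08, edgeR adjusted p = 2.15e-06) and by a log2 fold change of 0.17 with total counts. That second call was close to the threshold (SE 0.07, edgeR adjusted p = 0.0465), the groups overlapped on that scale, and limma on log2(FPKM + 1) did not call it (adjusted p = 0.0741). Gpx3, the secreted form, rose with TMM (log2 0.34, SE 0.07, edgeR adjusted p = 0.00656) and was called lower with total counts (log2 -0.79). Gpx7 stood at 0.582 ± 0.0748 and 0.15 ± 0.261 CPM (n = 3 each), had no count in knockout replicates 2 and 3, and did not pass with TMM (edgeR adjusted p = 0.276). It was called lower with total counts (edgeR adjusted p = 0.0404) and, with TMM, without knockout replicate 1 (edgeR adjusted p = 0.00564). Of 6 selenoprotein synthesis genes 3 fell and 0 rose with TMM, and all 6 were called lower with total counts. Of all tested genes, 14.4% were called lower with TMM and 70.7% with total counts. Sephs2, which makes the selenium donor, fell from 109.7 ± 12.0 to 52.6 ± 8.22 CPM (log2 -1.06, SE 0.12). Trnau1ap, which binds the selenocysteine tRNA, fell from 57.3 ± 3.86 to 25.6 ± 7.97 CPM (log2 -1.16, SE 0.20). Eefsec, the elongation factor for selenocysteine, fell by a log2 fold change of 0.25 with SE 0.08 (edgeR adjusted p = 0.047). Its call was lost without any one library other than wild type replicate 3, with adjusted p-values of 0.0739 to 0.157, and also with the length and GC correction (0.171) and with DESeq2 (0.0573). Sephs2 and Trnau1ap were called lower with total counts too.

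Of the 74 tested genes in 10 lists of the antioxidant system, members left out, 25 rose, 9 fell and 40 did not pass with TMM, at a median log2 fold change of -0.01. Over all tested genes 17.2% were called higher and 14.4% lower. With total counts 7 were called higher and 59 lower, and the median was -1.15. That scale called 4.24% of the whole tested set higher and 70.7% lower, with the median gene at -1.22. The lists were of textbook membership. The same shares stand beside the counts of each list below. Among the 1145 genes with a mean of at least 100 CPM, 73.5% were called higher and 5.59% lower with TMM. Gpx4, Idh2, Taldo1, Tkt, Txn2, Glrx3, Slc3a2, Gstm1, Gstp1, Gsto1, Fth1, Ftl1, Cyba and Rac2 averaged over 100 CPM in both groups.

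Genes of NADPH supply, which keep glutathione and thioredoxin reduced, gave 4 higher, 1 lower and 2 not passing of 7. Idh2, the mitochondrial isocitrate dehydrogenase that makes NADPH, rose from 326.4 ± 9.66 to 904.8 ± 59.4 CPM (n = 3 each; log2 1.47, SE 0.07), and by 0.34 with total counts. Taldo1 (log2 1.31, SE 0.06) and Tkt (log2 1.27, SE 0.08) of the pentose phosphate pathway rose with TMM, and Taldo1 was also called higher with total counts (log2 0.18). G6pdx, the first enzyme of that pathway, did not pass (log2 0.13, SE 0.08, edgeR adjusted p = 0.266). The gene that fell was Idh1, the cytosolic counterpart of Idh2 (log2 -0.67, SE 0.10).

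Of 13 thioredoxin system genes 4 rose and 3 fell. Txn2, the mitochondrial thioredoxin, rose slightly (log2 0.33, SE 0.06), as did the glutaredoxin gene Glrx3 (log2 0.51, SE 0.06), and both were called lower with total counts (log2 -0.80 and -0.62). Glrx2, a mitochondrial glutaredoxin, fell from 16.8 ± 1.67 to 7.14 ± 1.5 CPM (n = 3 each; log2 -1.23, SE 0.16). Txnrd1, the enzyme that reduces Txn1, had means of 9.22 ± 0.930 and 7.13 ± 1.84 CPM and did not pass (log2 -0.36, SE 0.19, edgeR adjusted p = 0.186). Txnrd2, the mitochondrial enzyme, fell from 14.5 ± 1.0 to 6.0 ± 2.58 CPM (log2 -1.26, SE 0.27). Srxn1, which repairs overoxidised peroxiredoxins, had means of 0.769 ± 0.0759 and 0.737 ± 0.431 CPM and did not pass.

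Glutathione synthesis and recycling genes gave 2 higher and 0 lower of 9, Gsr, which reduces oxidised glutathione (log2 0.60, SE 0.07), and the cystine transporter subunit gene Slc3a2 (log2 0.74, SE 0.06). Both were called lower with total counts (log2 -0.54 and -0.39), as were all 9 genes of the list. The median log2 fold change of the list was -0.43 with TMM and -1.56 with total counts. Over all tested genes it was -0.09 and -1.22. The regulatory subunit gene of the first enzyme of glutathione synthesis, Gclm, had means of 6.02 ± 1.01 and 4.11 ± 0.961 CPM and did not pass (log2 -0.56, SE 0.21, edgeR adjusted p = 0.0703). Without knockout replicate 3 it was called lower (log2 -0.76, edgeR adjusted p = 0.0209). Of 12 glutathione transferase genes 4 rose and 0 fell. Gstm1 rose from 975.1 ± 82.7 to 4211 ± 146 CPM (n = 3 each; log2 2.11, SE 0.07) and by 0.98 with total counts. Gsto1 (log2 0.87, SE 0.06) and Gstp1 (log2 0.98, SE 0.09) also rose with TMM, and stood at -0.26, a call, and -0.15, not a call, with total counts. The Gstm and Gstp genes have near-copies, so their separate values are uncertain.

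**Figure D4:**
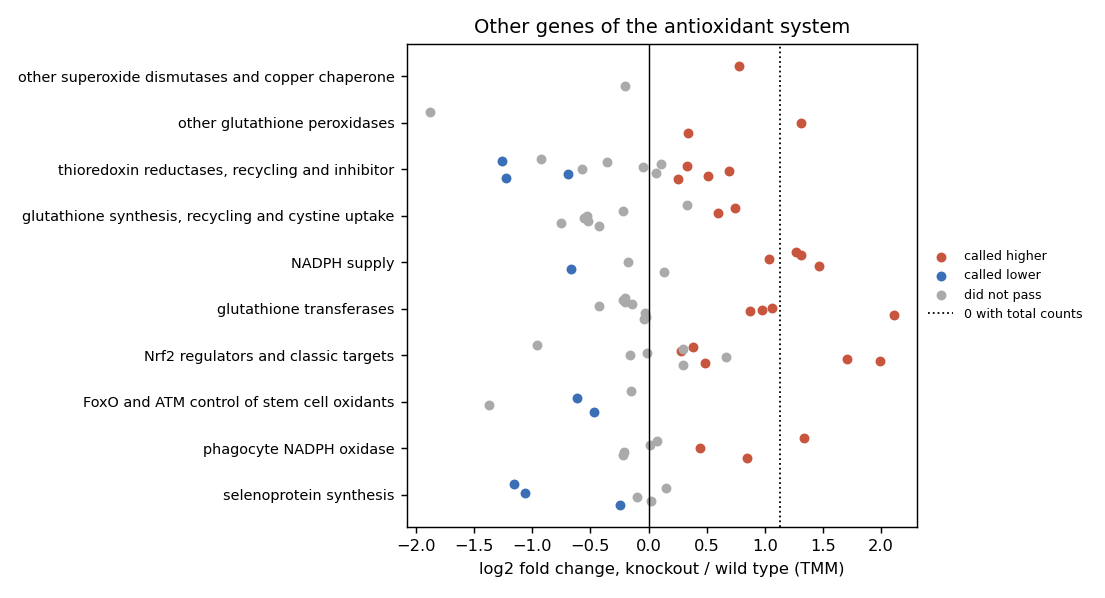
Log2 fold change with TMM scaling of 74 other genes of the antioxidant system, 1 row of points per list; red and blue points were called higher and lower, grey points did not pass, and the dotted line marks where a gene would stand at 0 with total counts. Few points lie to the right of the dotted line, among them Gstm1, Fth1 and Ftl1.

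Nrf2, encoded by Nfe2l2, is the transcription factor that switches on many of these genes, and Keap1 holds it inactive. Of 11 genes of this list 5 rose and 0 fell. Nfe2l2 rose from 32.5 ± 4.14 to 42.4 ± 3.24 CPM (n = 3 each; log2 0.38, SE 0.11, edgeR adjusted p = 0.0256) but was called lower with total counts (log2 -0.76). Fth1 (log2 1.99, SE 0.09) and Ftl1 (log2 1.71, SE 0.06), which encode the ferritin subunits that store iron, were higher with both scalings (0.86 and 0.58 with total counts). Blvrb, a biliverdin reductase, rose with TMM (log2 0.49, SE 0.08) and was called lower with total counts (log2 -0.65). The classic targets Hmox1 (0.821 ± 0.306 and 1.30 ± 0.280 CPM) and Nqo1 (1.33 ± 0.399 and 0.681 ± 0.0553 CPM) were low in both groups and did not pass.

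Nrf2 binds the antioxidant response element. Its core, TGACNNNGC, was searched on both strands of 300 bases at each start site (250 before and 50 after) in the RefSeq promoters of GRCm38.p6. Windows matched for 9 of the 10 genes, without Prdx6. The core was present in 2 of the 9, Prdx1 and Sod1, and in 12.4% of the 32851 windows of the table. Both are shown with 39 bases on each side, on the plus strand 5′ to 3′, and the core, which lies on the minus strand, is in capitals.
Prdx1: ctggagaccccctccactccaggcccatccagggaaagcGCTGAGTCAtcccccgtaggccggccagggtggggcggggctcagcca
Sod1: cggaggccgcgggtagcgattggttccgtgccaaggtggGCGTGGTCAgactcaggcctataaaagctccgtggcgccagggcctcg
The Prdx1 window is chr4:116685427-116685513 and the Sod1 window is chr16:90220667-90220753. The Prdx1 core spans bases 133 to 125 before the start and overlaps a match to the AP-1 motif TGANTCA at bases 131 to 125. A second AP-1 match in Prdx1 lies at bases 237 to 231, and 7.81% of all windows hold that motif. Gpx1 and Txn1 have neither set of letters in their windows.

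Genes of the phagocyte NADPH oxidase, which makes superoxide, gave 3 higher and 0 lower of 7 with TMM. Rac2, its small GTPase, rose from 811.6 ± 29.6 to 2050.0 ± 134 CPM (n = 3 each; log2 1.34, SE 0.07) and by 0.20, a call, with total counts. The membrane subunit gene Cyba (log2 0.85, SE 0.10) and the cytosolic subunit gene Ncf1 (log2 0.44, SE 0.08) rose with TMM and were called lower with total counts (log2 -0.28 and -0.70). Of the superoxide dismutase genes beside Sod1, the mitochondrial Sod2 rose with TMM (log2 0.78, SE 0.08) and was called lower with total counts (log2 -0.35), and the copper chaperone gene Ccs did not pass with TMM (log2 -0.20, SE 0.07, edgeR adjusted p = 0.0539). FoxO factors and the kinase ATM are known to keep peroxide low in stem cells. Of these 4 genes Foxo3 (4.74 ± 0.613 to 3.08 ± 0.719 CPM, edgeR adjusted p = 0.049) and Atm (7.04 ± 0.230 to 5.08 ± 0.548 CPM, edgeR adjusted p = 0.029) fell. The Foxo3 call was lost without any one library other than knockout replicate 2, and that of Atm without wild type replicate 1, 2 or 3 or knockout replicate 1. With the length and GC correction the edgeR adjusted p was 0.21 for Foxo3 and 0.362 for Atm, and DESeq2 gave Foxo3 0.074. Foxo1 had means of 1.01 ± 0.0991 and 0.385 ± 0.215 CPM and did not pass.

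Markers of the cells that a bone marrow sort can hold moved beside these genes. All 12 stem and progenitor markers had counts in every library, with sums of 211.3 to 216.9 CPM in the wild-type libraries and 229.8 to 236.2 CPM in knockout, 2 higher and 3 lower with TMM, and 0 higher and 11 lower with total counts. The 6 granulocyte progenitor markers summed to 84326 to 94392 CPM and to 260420.0 to 276180.0 CPM, with 5 higher and 1 lower. The 8 eosinophil markers were all higher, with sums of 5880.6 to 7082.7 and 46401 to 52109 CPM. Prg2 made up most of that sum (5155.5 ± 595 and 39685 ± 2839 CPM, n = 3 each). Of 11 erythroid markers 5 were higher and 1 lower, with sums of 1504 to 1991 and 4912 to 5876 CPM. Globin genes, led by Hba-a1 (781.4 ± 117 and 2450 ± 209 CPM, n = 3 each), made up most of that sum. Klf1 was the marker called lower (log2 -0.47). Late neutrophil markers (4 of 7 higher, 0 lower) summed to 2339 to 2715 and 8352 to 8670.0 CPM. S100a8 made up most of that sum (2120 ± 164 and 7660 ± 147 CPM, n = 3 each). B and plasma cell markers (3 of 8 higher, 3 lower) summed to 13495 to 14456 and 41782 to 43913 CPM. Most of that sum was Igkc (10848 ± 454 and 35193 ± 875 CPM) and Ighm (2367 ± 92.1 and 6336 ± 147 CPM, n = 3 each). The 3 called lower were Cd79a (log2 -0.48), Cd79b (log2 -0.31) and Xbp1 (log2 -1.29). Tissue macrophage markers summed to 112.8 to 118.4 and 110.2 to 115.8 CPM, with C1qa, C1qc and Mrc1 at 0 in some libraries. T and NK cell markers summed to 3368 to 3430.4 and 6325 to 6739 CPM, with 1 of the 5 in the table higher and 1 lower, and Gzma at 0 in some libraries. Nkg7 made up nearly all of that sum (3380.0 ± 35.7 and 6501 ± 211 CPM, n = 3 each), and Lck fell (7.66 ± 0.855 to 3.83 ± 0.783 CPM). Endothelial and stromal markers summed to 12.5 to 13.9 and 9.78 to 12.9 CPM. With total counts the sums were still higher in knockout for erythroid (4 markers called higher, 5 lower), eosinophil (6 and 0), granulocyte progenitor (4 and 1), late neutrophil (1 and 3) and B and plasma cell lists (2 and 6). They were lower for the stem and progenitor list, at 303.4 to 328.9 and 151.7 to 161.8 CPM, for T and NK cells (0 higher, 4 lower), at 4926 to 5108 and 4262 to 4583 CPM, for tissue macrophages (0 and 4) and for endothelial and stromal cells (0 and 1). The part of these markers in the antioxidant gene values was not tested.

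The 5 genes with the profile most like the median of the 10 were Camk2g, Myl12a, Tmed3, Atp5h and Psmb8, chosen from 4930 other genes of at least 10 CPM. Likeness was the root mean square difference between centred log2 CPM (TMM) over the 6 libraries, and it was 0.026, 0.027, 0.031, 0.039 and 0.040 for these genes. Their log2 fold changes were 0.99, 1.01, 1.02, 0.99 and 1.03 with TMM and -0.15, -0.12, -0.11, -0.15 and -0.10 with total counts. Among the members Sod1 (0.038) and Prdx5 (0.043) lay closest to that median and Gpx1 (0.643) and Prdx4 (0.548) farthest from it.

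In the authors' deposited table, 5 of the 10 genes are classed as up and 5 as stable. The authors' deposited table gives Gpx1 a log2 fold change of 2.28 (SE 0.07), Txn1 1.65 (SE 0.09), Prdx1 1.21 (SE 0.07), Prdx6 1.19 (SE 0.07) and Sod1 1.04 (SE 0.08), the 5 classed as up. Prdx5, at 0.95 (SE 0.08) in the authors' deposited table, lies just below the smallest value of an up gene there, 1.0036.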

How the data were processed

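The deposited table holds raw read counts per gene for 6 libraries, made by the authors. Tools listed in the submitters' processing notes are featureCounts 2.0.1, HISAT2 2.2.1, DESeq2 1.32.0 and fastp 0.22.0, with the build mm10. The deposited length-scaled values carry no unit and were taken as FPKM. FPKM was computed from the counts for genes with 1 annotated transcript and at least 500 counts. At least 98.5% of the deposited values per library lay within 1% of a constant multiple of it. Among the members only Prdx3 and Txn1 have 1 annotated transcript, so the lengths used for the other members were not checked. The deposited log2 fold changes, p-values, mean signal and test score are the authors' own DESeq2 comparison and only describe their table.

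Counts were fitted with edgeR 4.0.16 in R 4.3.3 (filterByExpr, TMM, glmQLFit, glmQLFTest, two-sided, group as the only term), and again with total counts as library size. Calls used Benjamini-Hochberg adjustment over all genes tested, with a threshold of 0.05. SE is the log2 fold change over the square root of F. The procedure was tested on simulated data. Gene models are GENCODE vM21 (GRCm38), matched for 18470 of 18491 IDs. Alternatives used DESeq2 1.42.0 and limma 3.58.1 on log2(FPKM + 1) and log2(FPKM + 0.1). No pair of replicates agreed within sampling noise (chi-square per degree of freedom 13.8 to 39.4).

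The members and lists were chosen with earlier results of these data known. Named genes are the 10 members, up to 3 genes of lowest p per list and the 5 most similar profiles. G6pdx, Idh1, Txnrd1, Txnrd2, Srxn1, Nfe2l2, Hmox1 and Nqo1 were named after their values were seen, as were the single cell type markers given with values.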

Additional observations from a re-analysis of the deposited data

How the results depend on the processing

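The scaling of the libraries decided most calls. With TMM, DESeq2's size factors, upper quartile scaling, no filter on low counts, DESeq2's own test, the replicate block or the exon length and GC correction, 8 of the 10 genes were called higher and 0 lower, as they were without any 1 library. Over all genes, total counts gave 656 higher and 10936 lower, counts outside the 100 most abundant genes 1248 and 8108, limma on log2(FPKM + 1) 697 and 10702, and limma on log2(FPKM + 0.1) 636 and 11247. The length and GC correction gave 1386 lower. Leaving out 1 library gave 1356 to 2142 lower, with 1356 without wild type replicate 2 and 1419 without wild type replicate 3. Of the 10 genes, total counts called 2 higher and 5 lower, limma 2 higher and 5 lower (+ 1) or 4 lower (+ 0.1), and counts outside the 100 most abundant genes 6 higher and 3 lower. Of the 74 other antioxidant genes the same settings called 7 higher and 59 lower (total counts), 13 and 42 (outside the 100 most abundant), 5 and 60 (+ 1) and 4 and 59 (+ 0.1). By TMM-scaled counts per kilobase of exon, 3 ranks of the knockout order held.

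Among the members, the genes of lowest p in each list and the 5 similar profiles, the log2 fold changes that turned negative with total counts were Prdx2 -0.85, Prdx3 -0.63, Prdx5 -0.19, Sod1 -0.09, Cat -1.03, Sod2 -0.35, Gpx3 -0.79, Txn2 -0.80, Glrx3 -0.62, Gsr -0.54, Slc3a2 -0.39, Gstp1 -0.15, Gsto1 -0.26, Blvrb -0.65, Cyba -0.28, Ncf1 -0.70, Camk2g -0.15, Myl12a -0.12, Tmed3 -0.11, Atp5h -0.15 and Psmb8 -0.10. With counts outside the 100 most abundant genes they were Prdx2 -0.33, Prdx3 -0.11, Cat -0.52, Gpx3 -0.28, Txn2 -0.28, Glrx3 -0.10, Gsr -0.02, Blvrb -0.13 and Ncf1 -0.18. With limma on log2(FPKM + 1) they were Prdx2 -0.83, Prdx3 -0.58, Prdx5 -0.32, Sod1 -0.09, Cat -0.90, Sod2 -0.33, Gpx3 -0.77, Txn2 -0.84, Glrx3 -0.62, Gsr -0.48, Slc3a2 -0.42, Gstp1 -0.15, Gsto1 -0.27, Blvrb -0.61, Cyba -0.28, Ncf1 -0.63, Camk2g -0.06, Myl12a -0.13, Tmed3 -0.11, Atp5h -0.14 and Psmb8 -0.03. With limma on log2(FPKM + 0.1) they were Prdx2 -0.84, Prdx3 -0.62, Prdx5 -0.32, Sod1 -0.09, Cat -1.01, Sod2 -0.35, Gpx3 -0.79, Txn2 -0.85, Glrx3 -0.62, Gsr -0.51, Slc3a2 -0.42, Gstp1 -0.15, Gsto1 -0.27, Blvrb -0.64, Cyba -0.28, Ncf1 -0.67, Camk2g -0.07, Myl12a -0.13, Tmed3 -0.11, Atp5h -0.14 and Psmb8 -0.03. Of the other genes given with values, Nfe2l2 (-0.76), G6pdx (-1.01), Trmt112 (-0.71), Rnaseh2a (-1.11), Hmox1 (-0.46) and Nkg7 (-0.19) also turned from positive to negative with total counts. Prdx4, not called, turned to 0.06 with the length and GC correction and ranged from -0.16 to 0.05 when 1 library was left out. Against the median of the others, the log2 ratios of Prdx1, Prdx6 and Sod1 were -0.42, -0.42 and -0.57. The step from TMM to total counts lowers all log2 fold changes by about the same amount, 1.13, and is not particular to these genes. Why the composition of the libraries differed between the groups was not tested.

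Same-numbered libraries of the groups correlated at 0.234, -0.132 and 0.144 in their deviations from the group means. Deviations from a mean of 3 libraries are tied to one another, so these values cannot decide whether the numbers pair the samples. With the replicate block 2467 genes were called higher and 1906 lower, 8 of the 10 members were called higher and 0 lower, and 23 of the other antioxidant genes were called higher and 7 lower. Not every library correlated best with its own number. The block ended the calls of Foxo3 (edgeR adjusted p = 0.0545), Atm (0.0524) and Eefsec (0.0725) and made one of Gclm (0.0497). DESeq2's size factors in edgeR ended those of Foxo3 (0.0596) and Eefsec (0.0811), and testing without the filter ended that of Foxo3 (0.0501) and made one of Ccs (0.047). The lowest count of a member in any library was 671, for Cat. The effect of depth on the calls was not tested, and Gpx7, Srxn1, Hmox1 and Foxo1 rest on few counts.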

Other observations

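Ratios of one gene to another within a library do not depend on how libraries are scaled. The following 4 pairs were chosen after their values were seen, so their exact permutation p of 0.1, the smallest that 3 against 3 libraries can give, is a description. Gpx1 and Cat encode enzymes that both remove hydrogen peroxide. The ratio of their FPKM was 359.9, 266.1 and 290.8 in the wild-type libraries and 1528, 1328 and 1329 in the knockout libraries, a 4.59-fold difference (4.52-fold from counts). Sod1 makes the peroxide that Gpx1 removes. The ratio of Gpx1 to Sod1 was 2.11, 2.21 and 2.12 in the wild-type libraries and 5.29, 5.43 and 4.72 in knockout, a 2.39-fold difference (2.37-fold from counts). The groups of these pairs lay far apart, with no overlap.

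Txn1 serves Prdx1. The FPKM ratio of Txn1 to Prdx1 was 0.733, 0.618 and 0.635 in the wild-type libraries and 0.963, 0.901 and 0.851 in knockout, a 1.37-fold difference (1.37-fold from counts), and the groups did not overlap. For the mitochondrial peroxiredoxins, the FPKM ratio of Prdx5 to Prdx3 was 31.2, 18.2 and 22.7 in the wild-type libraries and 30.1, 27.0 and 29.3 in knockout. The groups overlapped (exact permutation p = 0.4), and wild type replicate 1 stood highest of all 6 libraries. From counts the groups did not overlap, at a 1.35-fold difference.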
